A study of Homo sapiens with 16 samples.

Results

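The SLC25 family of mitochondrial carriers was followed across 16 sequencing libraries as every protein-coding gene named SLC25A and a number, which gave 48 members in a table of 24878 distinct genes with values. SLC25A6 is listed a second time with identical values and was counted once, and SLC25A2 carries no value. Of the 47 members with values, 42 reached 1 CPM in at least 2 libraries and were tested. SLC25A18, SLC25A31, SLC25A34, SLC25A41 and SLC25A47 did not, and their values are given as they are. The unit throughout is CPM, the count of a gene scaled to a library of 1000000, recovered from deposited log2 values.

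The libraries come from wild-type HEK293T cells, a human embryonic kidney line, in a study that marks RNA near an enzyme in living cells. Plasmids for BS2, an esterase, carrying a mitochondrial, a cytosolic, a nuclear or a nucleolar (NIK3x) targeting tag were transfected with Lipofectamine 3000, and non-transfected cells were the background. All cells, the non-transfected ones included, received the probe AC-2 at 50 µM for 3 min, in the transfected ones 24 h after transfection, and 1 mM PMSF stopped the labelling. Labelled RNA was clicked to biotin and enriched, and poly(A) RNA was sequenced. There were 2 mitochondrial, 2 cytosolic, 3 nuclear, 2 nucleolar and 3 non-transfected pull-downs, and 1 input library, made without enrichment, for each of the mitochondrial, cytosolic, nuclear and non-transfected cells. No nucleolar input was used here. The promoter of the plasmids and the share of cells transfected are not given in the sources used here.

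Carriers of this family are encoded in the nucleus, made on ribosomes in the cytosol and inserted into the inner mitochondrial membrane through the receptor TOM70, small chaperones of the intermembrane space and the TIM22 complex. They exchange adenine nucleotides, phosphate, carboxylates, amino acids, cofactors and iron between the mitochondrial matrix and the cytosol. A few members work elsewhere: SLC25A17 sits in peroxisomes and SLC25A46 in the outer mitochondrial membrane. Messenger RNAs of mitochondrial proteins can be translated near the outer membrane, and the comparisons below ask in which pull-downs the carrier mRNAs were higher or lower.

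The step between low values put the libraries at 6340000 to 20010000 reads, so that 1 read stood for 0.0541 to 0.154 CPM. Replicates are labelled biological, but no label names separate cultures, so the p-values below may reflect technical spread alone. Nuclear replicate 3 stood furthest from its group: the median difference between replicates over the members was 0.26 and 0.19 on the log2 scale against nuclear replicates 1 and 2, and 0.09 to 0.16 for the other pairs of replicates. Of genes known from HEK293T, NEFL, NEFM and LIN28B were at 58.6 CPM or more in all 16 libraries and PAX2 was at 3.15 to 5.995 CPM. Of 5 genes listed as absent from the line, PTPRC and HBB stayed below 1 CPM, ALB reached 1.94 CPM, KRT14 has no value and COL1A1 was present at 9.48 to 22.1 CPM. Mitochondrially encoded mRNAs took 5.45% of all CPM in the mitochondrial pull-downs, 0.888% in the cytosolic, 0.876% in the nuclear and 2.94% in the nucleolar pull-downs, against 2.03% in the non-transfected ones. The single inputs differed before enrichment too, at 3.29% (mitochondrial), 0.602% (cytosolic) and 1.84% (nuclear), against 1.33% (non-transfected). With limma at adjusted p below 0.05, 13 of 13 rose with the mitochondrial construct over non-transfected pull-downs (28.9% of all genes). With the input difference subtracted, 0 of 13 rose (6.16%). The nuclear RNAs MALAT1 and NEAT1 rose with the mitochondrial, nuclear and nucleolar construct (28.9%, 32.2% and 30.1% of all genes). With the cytosolic construct 0 of them rose and 1 fell (28.9% and 22.4%). The part of the shift in mitochondrially encoded mRNAs in the levels of other genes was not tested.

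Near-identical sequence limits how far SLC25A51 and SLC25A52 can be told apart. The stretches below show this closest pair and, for comparison, the 3 most expressed ADP/ATP carriers, which are less alike. Sequences are spliced coding bases of the principal transcript in GENCODE 29 on GRCh38, 5′ to 3′ on the coding strand. SLC25A4 (chr4:185143241-185150382, plus strand), SLC25A5 (chrX:119468400-119471319, plus strand) and SLC25A6 (chrX:1386152-1392724, minus strand) are shown over bases 37 to 156 of their coding sequences, with capitals at the 25 positions where the 3 are not all alike. SLC25A6 and SLC25A5 share 78.8% of their 894 coding bases, and their longest identical run, 29 bases, lies in this stretch at bases 85 to 113.
SLC25A4: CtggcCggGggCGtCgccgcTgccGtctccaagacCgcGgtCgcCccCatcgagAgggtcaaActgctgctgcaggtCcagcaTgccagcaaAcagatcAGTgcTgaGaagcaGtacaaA
SLC25A5: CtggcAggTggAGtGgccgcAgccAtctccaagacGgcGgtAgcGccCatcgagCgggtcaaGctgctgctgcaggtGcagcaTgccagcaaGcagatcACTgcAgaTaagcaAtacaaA
SLC25A6: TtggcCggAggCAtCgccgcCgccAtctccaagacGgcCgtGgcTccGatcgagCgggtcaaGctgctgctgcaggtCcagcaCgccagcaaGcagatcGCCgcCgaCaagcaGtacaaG

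SLC25A52 (chr18:31759562-31760880, minus strand) and SLC25A51 (chr9:37879400-37904353, minus strand), both NAD carriers, share 97.6% of 891 aligned coding bases and an identical run of 169 bases, so the division of reads between them is uncertain. They are shown over 150 bases, from base 355 of SLC25A52 and base 325 of SLC25A51, with capitals at the 8 positions that differ.
SLC25A52: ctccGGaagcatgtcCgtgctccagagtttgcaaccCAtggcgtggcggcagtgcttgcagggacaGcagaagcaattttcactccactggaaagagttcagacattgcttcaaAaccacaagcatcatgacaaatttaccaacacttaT
SLC25A51: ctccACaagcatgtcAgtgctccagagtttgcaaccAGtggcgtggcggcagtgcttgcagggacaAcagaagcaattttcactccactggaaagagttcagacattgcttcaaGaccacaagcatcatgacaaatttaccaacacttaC

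The annotation also names 40 pseudogenes of family members, 9 of them of SLC25A5 and 6 of SLC25A6. None of these has a value in the table, and whether their reads were dropped or given to the parent genes is not given in the sources used here. Antisense genes named after SLC25A5, SLC25A21, SLC25A25 and SLC25A30 also have values. Whether they share bases with these members was not checked, and the strand setting of the counting is not given either.

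In the non-transfected pull-downs 8 members averaged 100 CPM or more, 26 lay at 10 to 100 CPM, 7 at 1 to 10 CPM and 6 below 1 CPM. Per kilobase of transcript, SLC25A5, the ADP/ATP carrier of growing cells, led with 699 CPM per kb in the non-transfected pull-downs, followed by the phosphate carrier SLC25A3 with 312 and SLC25A6, another ADP/ATP carrier, with 85.3. SLC25A39, needed for mitochondrial glutathione import, came next with 58.4, and SLC25A46, SLC25A1 and SLC25A11 followed at 43.3, 41.99 and 41.8 CPM per kb, which differ by less than their spread. SLC25A4, the ADP/ATP carrier of heart and muscle, had 8.83 CPM per kb. At the low end SLC25A31, the testis form of the ADP/ATP carrier, and SLC25A52 were listed at 0 in all 3 non-transfected pull-downs.

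All members together summed to 2409 ± 209 CPM in the mitochondrial pull-downs, 2596 ± 17.0 CPM in the cytosolic, 2291 ± 63.8 CPM in the nuclear and 1954 ± 69.9 CPM in the nucleolar pull-downs, against 3201 ± 141 CPM in the non-transfected ones (mean ± SD, n = 2, 2, 3, 2 and 3). Every transfected pull-down summed lower than every non-transfected one. SLC25A5 alone made up 18.4% ± 1.59, 20.2% ± 0.242, 15.7% ± 0.861 and 16.9% ± 0.396 of the family in these transfected groups and 27.8% ± 0.863 in the non-transfected one. The single inputs summed to 3028 CPM (mitochondrial), 3362 CPM (cytosolic), 3458 CPM (nuclear) and 3947 CPM (non-transfected), so the transfected inputs were lower as well.

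Each construct was first set against the non-transfected pull-downs, whose cells received the probe but were not transfected. Marking by BS2 and effects of transfection itself therefore cannot be told apart in these 4 comparisons. Tests were made on log2(CPM + 1) over all genes fitted with limma, a change is a log2 fold change ± its standard error, and a call is an adjusted p below 0.05. With the mitochondrial construct 8 of 42 members rose (against 28.9% of all genes fitted) and 14 fell (27%). With the cytosolic construct 9 of 42 members rose (against 28.9% of all genes fitted) and 13 fell (22.4%), and with the nuclear construct 12 of 42 members rose (against 32.2% of all genes fitted) and 16 fell (34.2%). With the nucleolar construct 8 of 42 members rose (against 30.1% of all genes fitted) and 22 fell (35.6%). Each of these 4 counts of rises includes SLC25A52, which was at 0 in all non-transfected pull-downs and so could not fall. In the mitochondrial comparison 55.9% of all genes passed in one direction or the other, so calls in this family are read against a table in which most genes move. The median change of the members was -0.09, -0.11, -0.09 and -0.40 in the same order, and that of protein-coding genes was 0.00, 0.05, -0.04 and -0.08. These 4 comparisons share the 3 non-transfected libraries, so their values for a gene are given side by side and are not independent.

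The nuclear split depends on scaling. When each library was scaled to a common total in place of the authors' TMM factors, the median of all genes in the nuclear comparison shifted by 0.25. Then 18 of 42 members rose and 10 fell, beside 7235 and 3652 of all 16168 genes fitted. Without cytosolic replicate 1, 5 members rose with the cytosolic construct, beside 3585 of 16111 genes. In these bulk libraries, fewer labelled cells and less labelled RNA per cell cannot be told apart.

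**Figure D1:**
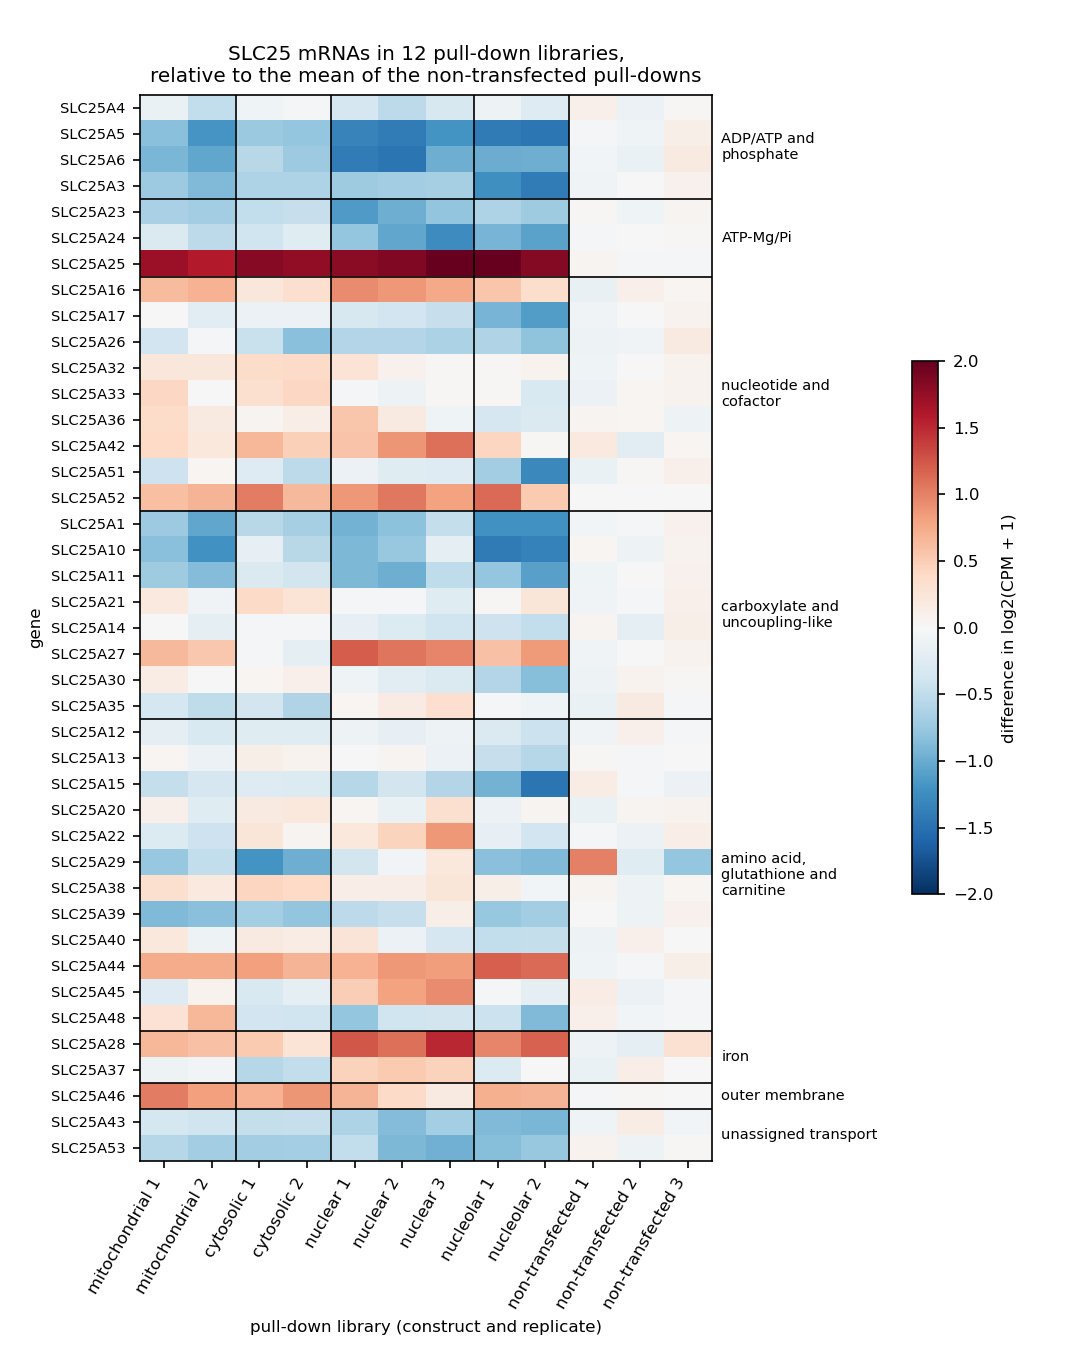
Difference in log2(CPM + 1) from the mean of the non-transfected pull-downs for 41 of the 42 tested members (down the page, by substrate) in the 12 pull-down libraries (across, by construct and replicate); red is higher and blue lower. SLC25A25 is the reddest line in all 9 transfected libraries, and SLC25A5, SLC25A6 and SLC25A3 are blue in all 9.

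The ADP/ATP and phosphate carriers, which supply the ATP synthase with ADP and phosphate and export its ATP, were lower in every transfected pull-down than in any non-transfected one for SLC25A5, SLC25A6 and SLC25A3. SLC25A5 stood at 500.01 and 391 CPM in the mitochondrial pull-downs, 532 and 519 CPM in the cytosolic, 350.2, 338 and 389 CPM in the nuclear and 333 and 327 CPM in the nucleolar pull-downs, against 865, 840.4 and 967 CPM in the non-transfected ones. The highest transfected library lay well below the lowest non-transfected one. For SLC25A5, the log2 change over the non-transfected pull-downs was -1.01 ± 0.10 (adjusted p = 1.14e-06) with the mitochondrial, -0.76 ± 0.10 (adjusted p = 2.32e-05) with the cytosolic, -1.31 ± 0.09 (adjusted p = 1.14e-08) with the nuclear and -1.43 ± 0.10 (adjusted p = 1.31e-08) with the nucleolar construct.

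SLC25A6 had 92.9 and 84.4 CPM in the mitochondrial pull-downs, 119 and 105 CPM in the cytosolic, 66.0, 63.3 and 88.9 CPM in the nuclear and 87.5 and 88.8 CPM in the nucleolar pull-downs, against 168, 160.3 and 199 CPM in the non-transfected ones. Here too the groups did not overlap. The fitted log2 change of SLC25A6 was -0.98 ± 0.13 (adjusted p = 1.68e-05) with the mitochondrial, -0.64 ± 0.13 (adjusted p = 0.000838) with the cytosolic, -1.27 ± 0.12 (adjusted p = 1.90e-07) with the nuclear and -0.98 ± 0.13 (adjusted p = 9.44e-06) with the nucleolar construct. SLC25A3 was at 314 and 284 CPM in the mitochondrial pull-downs, 341 and 339.8 CPM in the cytosolic, 319, 323 and 329 CPM in the nuclear and 223 and 199 CPM in the nucleolar pull-downs, against 498, 519 and 555 CPM in the non-transfected ones. On the log2 scale SLC25A3 differed from the non-transfected pull-downs by -0.81 ± 0.08 (adjusted p = 9.90e-07) with the mitochondrial, -0.62 ± 0.08 (adjusted p = 1.70e-05) with the cytosolic, -0.69 ± 0.07 (adjusted p = 7.54e-07) with the nuclear and -1.31 ± 0.08 (adjusted p = 2.54e-09) with the nucleolar construct. For SLC25A3 the nucleolar libraries were lowest and the other transfected ones lay close together.

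SLC25A4 moved less. SLC25A4 stood at 35.4 and 27.5 CPM in the mitochondrial pull-downs, 36.7 and 38.3 CPM in the cytosolic, 30.9, 27.0 and 31.2 CPM in the nuclear and 36.5 and 32.5 CPM in the nucleolar pull-downs, against 41.9, 36.0 and 39.7 CPM in the non-transfected ones. It fell with the mitochondrial (-0.32 ± 0.12, adjusted p = 0.0377) and the nuclear construct (-0.39 ± 0.11, adjusted p = 0.00538) and did not pass with the cytosolic (-0.06 ± 0.12, adjusted p = 0.704) or the nucleolar one (-0.18 ± 0.12, adjusted p = 0.212). Without mitochondrial replicate 2, or without non-transfected replicate 1 or 3, the mitochondrial call was lost, and the nuclear call was lost with a common total (-0.12). All 4 tested members of this group fell with the mitochondrial and the nuclear construct, and 3 of 4 with the cytosolic and the nucleolar construct (27% and 34.2%, and 22.4% and 35.6%, of all genes fell). Their median changes were -0.89, -0.63, -0.98 and -1.15 in the order mitochondrial, cytosolic, nuclear and nucleolar. The falls of SLC25A5, SLC25A6 and SLC25A3 kept their calls under every alternative and every left-out library in these 4 comparisons.

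**Figure D2:**
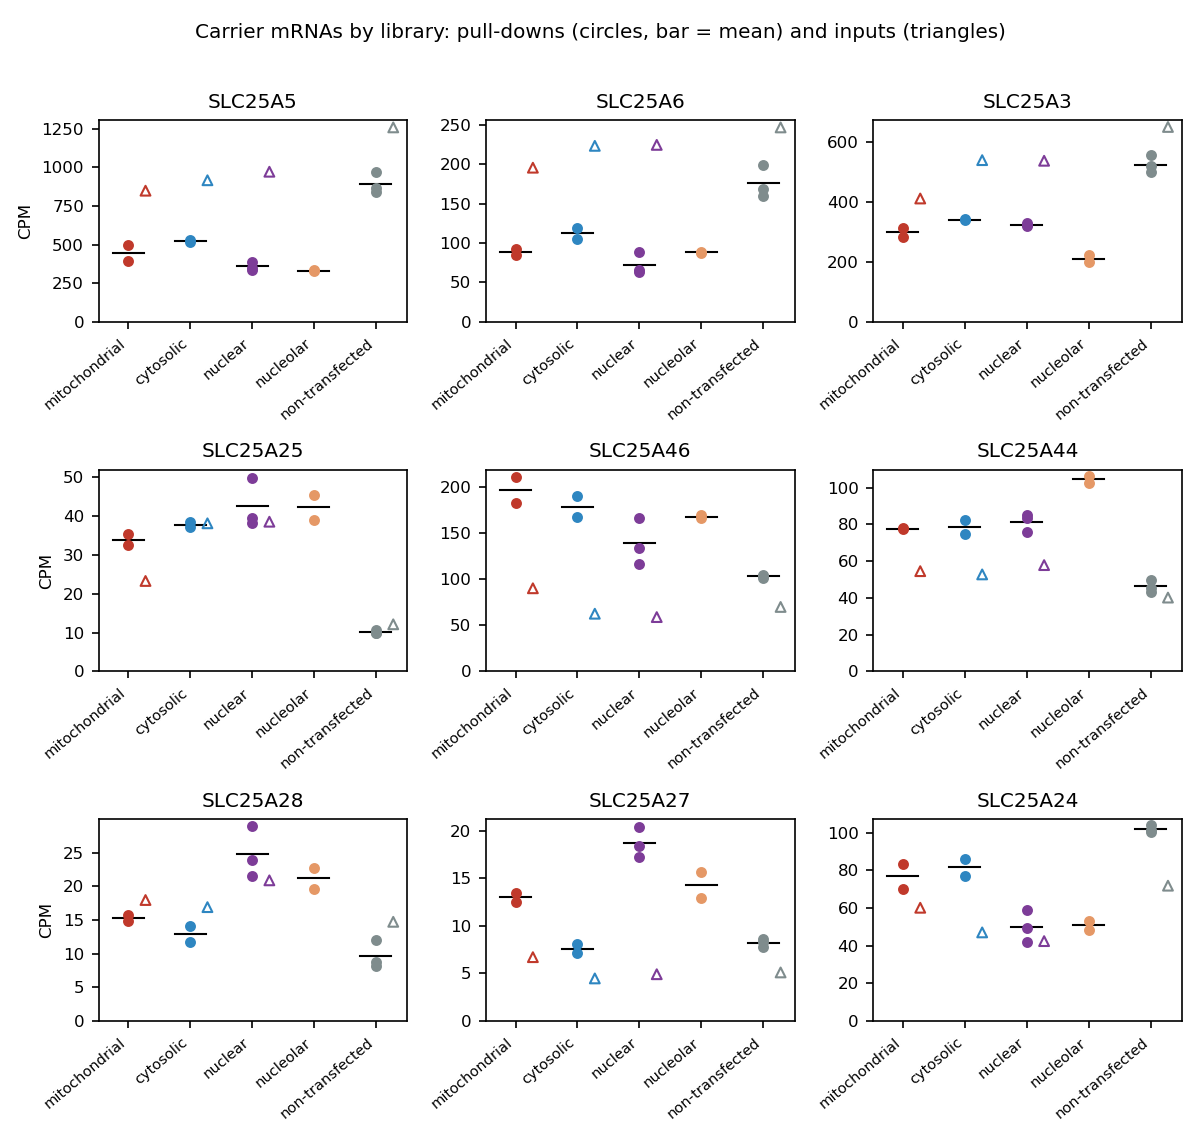
CPM of 9 carrier mRNAs by construct (mitochondrial, cytosolic, nuclear, nucleolar, non-transfected); circles are pull-down libraries, bars their means and open triangles the single inputs, and each vertical axis starts at 0. SLC25A5, SLC25A6 and SLC25A3 lie lower and SLC25A25, SLC25A46 and SLC25A44 higher in all transfected pull-downs, while SLC25A28, SLC25A27 and SLC25A24 differ between constructs.

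The calcium-regulated ATP-Mg/phosphate carriers, which adjust the adenine nucleotide pool of the matrix, split. On the log2(CPM + 1) scale SLC25A25 rose more than any other tested member with each of the 4 constructs, a scale that understates low genes such as SLC25A52, given further down. SLC25A25 had 35.4 and 32.5 CPM in the mitochondrial pull-downs, 38.4 and 37.3 CPM in the cytosolic, 38.2, 39.5 and 50.0 CPM in the nuclear and 45.5 and 39.1 CPM in the nucleolar pull-downs, against 10.6, 9.98 and 9.89 CPM in the non-transfected ones. The lowest transfected library was far above the highest non-transfected one, with no overlap. For SLC25A25, the log2 change over the non-transfected pull-downs was 1.64 ± 0.12 (adjusted p = 5.86e-08) with the mitochondrial, 1.80 ± 0.12 (adjusted p = 2.72e-08) with the cytosolic, 1.95 ± 0.11 (adjusted p = 1.21e-09) with the nuclear and 1.95 ± 0.12 (adjusted p = 3.45e-09) with the nucleolar construct. The inputs also differed before enrichment, at 23.3 CPM (mitochondrial), 38.2 CPM (cytosolic) and 38.6 CPM (nuclear), against 12.1 CPM in the non-transfected input. SLC25A25-AS1, the antisense gene named after it, had 6.60 and 7.98 CPM in the mitochondrial pull-downs, 7.37 and 7.66 CPM in the cytosolic, 12.8, 13.2 and 12.5 CPM in the nuclear and 24.8 and 29.9 CPM in the nucleolar pull-downs, against 2.66, 2.76 and 3.40 CPM in the non-transfected ones. Without a stated strand setting, the division of reads from any bases that this pair shares is uncertain.

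The other tested members of that group were lower. SLC25A23 was at 80.3 and 77.7 CPM in the mitochondrial pull-downs, 89.8 and 92.0 CPM in the cytosolic, 57.5, 64.1 and 73.0 CPM in the nuclear and 82.1 and 77.4 CPM in the nucleolar pull-downs, against 129, 119.8 and 132 CPM in the non-transfected ones. The fitted log2 change of SLC25A23 was -0.68 ± 0.10 (adjusted p = 3.30e-05) with the mitochondrial, -0.48 ± 0.10 (adjusted p = 0.00084) with the cytosolic, -0.96 ± 0.09 (adjusted p = 1.60e-07) with the nuclear and -0.66 ± 0.10 (adjusted p = 2.52e-05) with the nucleolar construct. SLC25A24 stood at 83.3 and 70.3 CPM in the mitochondrial pull-downs, 77.2 and 85.9 CPM in the cytosolic, 59.1, 49.1 and 42.1 CPM in the nuclear and 53.3 and 48.3 CPM in the nucleolar pull-downs, against 101, 101 and 104 CPM in the non-transfected ones. The nuclear and nucleolar libraries of SLC25A24 were lower than the mitochondrial and cytosolic ones, which in turn lay below all non-transfected libraries. On the log2 scale SLC25A24 differed from the non-transfected pull-downs by -0.41 ± 0.12 (adjusted p = 0.0102) with the mitochondrial, -0.32 ± 0.12 (adjusted p = 0.0392) with the cytosolic, -1.02 ± 0.11 (adjusted p = 9.54e-07) with the nuclear and -0.99 ± 0.12 (adjusted p = 4.15e-06) with the nucleolar construct. Its mitochondrial call was lost without mitochondrial replicate 2, and its cytosolic call with no filter, with no trend and without any one of the 5 libraries compared.

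Of the 8 tested carboxylate and uncoupling-protein-like carriers, 1 rose and 4 fell with the mitochondrial (28.9% and 27% of all genes), 0 and 2 with the cytosolic (28.9% and 22.4% of all genes), 1 and 4 with the nuclear (32.2% and 34.2% of all genes) and 1 and 5 with the nucleolar construct (30.1% and 35.6% of all genes), with medians of -0.25, -0.21, -0.24 and -0.59. Among the carboxylate carriers, which link the citric acid cycle with the cytosol, SLC25A1, SLC25A10 and SLC25A11 were lower. The citrate carrier SLC25A1 had 41.2 and 33.1 CPM in the mitochondrial pull-downs, 46.7 and 43.2 CPM in the cytosolic, 35.3, 38.7 and 49.3 CPM in the nuclear and 29.2 and 29.4 CPM in the nucleolar pull-downs, against 66.3, 67.5 and 73.8 CPM in the non-transfected ones. All transfected libraries lay below the non-transfected ones. For SLC25A1, the log2 change over the non-transfected pull-downs was -0.89 ± 0.13 (adjusted p = 4.12e-05) with the mitochondrial, -0.61 ± 0.13 (adjusted p = 0.00122) with the cytosolic, -0.75 ± 0.12 (adjusted p = 4.50e-05) with the nuclear and -1.21 ± 0.13 (adjusted p = 1.04e-06) with the nucleolar construct. The dicarboxylate carrier SLC25A10 had 12.8 and 9.61 CPM in the mitochondrial pull-downs and 8.22 and 8.64 CPM in the nucleolar pull-downs, against 24.3, 21.9 and 24.7 CPM in the non-transfected ones. It fell by 1.03 and by 1.39 on the log2 scale (SE 0.19 and 0.19, adjusted p = 0.00034 and 1.38e-05), and also with the nuclear construct (-0.61 ± 0.17, adjusted p = 0.00558), a call that was lost with a common total (-0.34). The oxoglutarate carrier SLC25A11 fell with the mitochondrial (-0.79 ± 0.13, adjusted p = 0.000133), nuclear (-0.79 ± 0.12, adjusted p = 3.15e-05) and nucleolar construct (-0.92 ± 0.13, adjusted p = 2.03e-05), and its cytosolic value did not pass (-0.33 ± 0.13, adjusted p = 0.0516). The oxodicarboxylate carrier SLC25A21 was not called with any of the 4 constructs.

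The uncoupling-protein-like members of this group behaved differently. SLC25A27, a neuronal uncoupling protein, rose with 3 constructs. SLC25A27 had 13.5 and 12.5 CPM in the mitochondrial pull-downs, 8.07 and 7.18 CPM in the cytosolic, 20.4, 18.4 and 17.3 CPM in the nuclear and 12.9 and 15.7 CPM in the nucleolar pull-downs, against 7.83, 8.28 and 8.66 CPM in the non-transfected ones. The cytosolic libraries overlapped the non-transfected ones and the other transfected libraries did not. The fitted log2 change of SLC25A27 was 0.60 ± 0.14 (adjusted p = 0.00179) with the mitochondrial, -0.10 ± 0.14 (adjusted p = 0.553) with the cytosolic, 1.09 ± 0.12 (adjusted p = 1.68e-06) with the nuclear and 0.72 ± 0.14 (adjusted p = 0.000279) with the nucleolar construct. SLC25A30, a kidney carrier of the same branch, fell with the nucleolar construct (-0.72 ± 0.11, adjusted p = 4.21e-05). SLC25A14 fell with the nucleolar (-0.45 ± 0.12, adjusted p = 0.00297) and the nuclear construct (-0.28 ± 0.10, adjusted p = 0.0274), the nuclear call being lost with a common total, with median-of-ratios scaling, when only the groups compared were fitted, when the length and GC trend was removed, and without non-transfected replicate 1 or 3 or nuclear replicate 2 or 3. SLC25A35 fell with the mitochondrial (-0.43 ± 0.16, adjusted p = 0.032) and the cytosolic construct (-0.48 ± 0.16, adjusted p = 0.0205). Both of these SLC25A35 calls were lost when the length and GC trend was removed, without non-transfected replicate 2 and without replicate 2 of the construct. The mitochondrial one was also lost without mitochondrial replicate 1, with no filter on low values, with quantile normalization, when only the groups compared were fitted and with the replicate number as a block.

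Of the 10 carriers of nucleotides and cofactors, 2 rose and 0 fell with the mitochondrial (28.9% and 27% of all genes), 5 and 1 with the cytosolic (28.9% and 22.4% of all genes), 4 and 2 with the nuclear (32.2% and 34.2% of all genes) and 3 and 3 with the nucleolar construct (30.1% and 35.6% of all genes), with medians of 0.25, 0.32, 0.17 and -0.05. SLC25A52 is 1 of the rises with each construct, and at 0 in the non-transfected pull-downs it could not fall. SLC25A16, which is linked to coenzyme A transport, rose with all but the cytosolic construct. SLC25A16 was at 29.2 and 30.2 CPM in the mitochondrial pull-downs, 21.7 and 23.3 CPM in the cytosolic, 36.4, 34.3 and 31.8 CPM in the nuclear and 27.5 and 23.8 CPM in the nucleolar pull-downs, against 16.5, 19.7 and 19.0 CPM in the non-transfected ones. Each transfected library lay above the non-transfected ones. On the log2 scale SLC25A16 differed from the non-transfected pull-downs by 0.66 ± 0.12 (adjusted p = 0.000189) with the mitochondrial, 0.28 ± 0.12 (adjusted p = 0.054) with the cytosolic, 0.86 ± 0.10 (adjusted p = 3.32e-06) with the nuclear and 0.46 ± 0.12 (adjusted p = 0.00269) with the nucleolar construct. The nucleolar call was lost without nucleolar replicate 1.

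SLC25A42, a coenzyme A carrier, rose with the nuclear (0.86 ± 0.17, adjusted p = 0.000345) and the cytosolic construct (0.56 ± 0.19, adjusted p = 0.02), the cytosolic call being lost without cytosolic replicate 1 or non-transfected replicate 2. SLC25A26, which carries S-adenosylmethionine, fell with the cytosolic (-0.64 ± 0.16, adjusted p = 0.0033), nuclear (-0.60 ± 0.14, adjusted p = 0.00154) and nucleolar construct (-0.71 ± 0.16, adjusted p = 0.00105), the cytosolic call being lost without cytosolic replicate 2. SLC25A32, tied to folate and FAD transport, rose with the cytosolic construct (0.38 ± 0.10, adjusted p = 0.00371). The pyrimidine nucleotide carrier SLC25A33 rose there too (0.36 ± 0.13, adjusted p = 0.0327), a call lost without either cytosolic replicate or without non-transfected replicate 1, and SLC25A36 was not called with any of the 4. The peroxisomal SLC25A17 stood at 45.2 and 39.3 CPM in the nucleolar pull-downs, against 82.8, 86.3 and 91.3 CPM in the non-transfected ones, and fell (-1.02 ± 0.10, adjusted p = 2.45e-07), as it did with the nuclear construct (-0.39 ± 0.09, adjusted p = 0.00101), a call lost with a common total. Its mitochondrial libraries, at 86.1 and 73.6 CPM, were not called (-0.12 ± 0.10, adjusted p = 0.296). The NAD carrier SLC25A51 fell with the nucleolar construct (-0.99 ± 0.18, adjusted p = 0.000153) and did not pass with the mitochondrial (-0.18 ± 0.18, adjusted p = 0.396), cytosolic (-0.39 ± 0.18, adjusted p = 0.0783) or nuclear one (-0.21 ± 0.16, adjusted p = 0.262).

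SLC25A52, the near copy of SLC25A51, was listed at 0 in all 3 non-transfected pull-downs and had 0.522 and 0.610 CPM in the mitochondrial pull-downs, 1.03 and 0.575 CPM in the cytosolic, 0.827, 1.08 and 0.749 CPM in the nuclear and 1.19 and 0.432 CPM in the nucleolar pull-downs. Its mean was 5.68-, 8.07-, 8.90- and 8.11-fold a floor of 3 reads over the non-transfected group, in that order. The floor covers counting error in the non-transfected group only, so these folds are not lower limits. Because SLC25A52 passed the filter on low values only through the groups where it is high, it had to differ once tested. It passed with each construct (adjusted p = 0.0264, 0.00696, 0.00116 and 0.00553 in the same order), and 1 library decided 3 of these calls: without either mitochondrial replicate, without cytosolic replicate 1 or without nucleolar replicate 1 the call of that construct was lost.

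Of the 12 tested carriers of amino acids, glutathione and carnitine, 2 rose and 2 fell with the mitochondrial (28.9% and 27% of all genes), 2 and 2 with the cytosolic (28.9% and 22.4% of all genes), 3 and 2 with the nuclear (32.2% and 34.2% of all genes) and 1 and 7 with the nucleolar construct (30.1% and 35.6% of all genes), with medians of -0.08, -0.07, -0.04 and -0.42. SLC25A44, the carrier of branched-chain amino acids, rose in each comparison. SLC25A44 stood at 77.7 and 77.7 CPM in the mitochondrial pull-downs, 82.1 and 74.7 CPM in the cytosolic, 75.7, 85.1 and 83.5 CPM in the nuclear and 106 and 102 CPM in the nucleolar pull-downs, against 43.4, 45.3 and 49.9 CPM in the non-transfected ones. The nucleolar libraries were the highest. For SLC25A44, the log2 change over the non-transfected pull-downs was 0.74 ± 0.09 (adjusted p = 7.52e-06) with the mitochondrial, 0.75 ± 0.09 (adjusted p = 8.51e-06) with the cytosolic, 0.81 ± 0.08 (adjusted p = 5.42e-07) with the nuclear and 1.16 ± 0.09 (adjusted p = 3.45e-08) with the nucleolar construct. SLC25A39 had 50.3 and 51.8 CPM in the mitochondrial pull-downs, 58.1 and 53.7 CPM in the cytosolic, 65.2, 68.1 and 102 CPM in the nuclear and 55.1 and 57.5 CPM in the nucleolar pull-downs, against 94.5, 87.1 and 100.1 CPM in the non-transfected ones. The fitted log2 change of SLC25A39 was -0.86 ± 0.14 (adjusted p = 0.000128) with the mitochondrial, -0.74 ± 0.14 (adjusted p = 0.000603) with the cytosolic, -0.29 ± 0.13 (adjusted p = 0.0624) with the nuclear and -0.73 ± 0.14 (adjusted p = 0.0004) with the nucleolar construct. Nuclear replicate 3 of SLC25A39 overlapped the non-transfected libraries, and nuclear replicates 1 and 2 did not.

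The aspartate/glutamate carriers of the malate-aspartate shuttle moved little outside the nucleolar comparison. SLC25A13 had 126 and 112 CPM in the mitochondrial pull-downs, 133 and 128 CPM in the cytosolic, 122, 127 and 113 CPM in the nuclear and 88.5 and 82.0 CPM in the nucleolar pull-downs, against 124, 119 and 123 CPM in the non-transfected ones. SLC25A13 fell with the nucleolar construct (-0.51 ± 0.08, adjusted p = 7.34e-05) and was not called with the mitochondrial (-0.04 ± 0.08, adjusted p = 0.707), the cytosolic (0.10 ± 0.08, adjusted p = 0.36) or the nuclear one (-0.02 ± 0.08, adjusted p = 0.863). Its nuclear value turned to 0.26 with a common total. SLC25A12 also fell with the nucleolar construct (-0.36 ± 0.10, adjusted p = 0.00607), a call lost without nucleolar replicate 2. The glutamate carrier SLC25A22 rose with the nuclear construct (0.50 ± 0.15, adjusted p = 0.00852), as did SLC25A45 (0.75 ± 0.17, adjusted p = 0.00111), and neither was called with the other 3. The ornithine carrier SLC25A15 fell with the mitochondrial (-0.40 ± 0.13, adjusted p = 0.0185), nuclear (-0.51 ± 0.12, adjusted p = 0.00161) and nucleolar construct (-1.20 ± 0.13, adjusted p = 1.48e-06). For SLC25A15 the mitochondrial call was lost when the length and GC trend was removed and without non-transfected replicate 1 or mitochondrial replicate 1, and the nuclear one with a common total. SLC25A20, which carries acylcarnitines for fatty acid oxidation, was not called with any of the 4 constructs, with 95% intervals of -0.38 to 0.24 (mitochondrial), -0.12 to 0.50 (cytosolic), -0.20 to 0.36 (nuclear) and -0.34 to 0.28 (nucleolar). In the non-transfected pull-downs the basic amino acid carrier SLC25A29 had 21.8, 8.62 and 5.67 CPM, with replicate 1 far above the others. Its cytosolic fall (-1.09 ± 0.35, adjusted p = 0.017) was lost with no filter, with robust moderation and without either cytosolic replicate. SLC25A29 had 5.35 and 5.16 CPM in the nucleolar pull-downs and fell there as well (-0.86 ± 0.35, adjusted p = 0.0409). That call was lost without non-transfected replicate 1, where the change was -0.36, without either nucleolar replicate, and under 7 of the 13 other alternatives, all 3 other scalings among them. The glycine carrier SLC25A38 rose with the cytosolic (0.42 ± 0.10, adjusted p = 0.00246) and the mitochondrial construct (0.26 ± 0.10, adjusted p = 0.0347), the mitochondrial call being lost without either mitochondrial replicate or without non-transfected replicate 2. SLC25A40 fell with the nucleolar construct (-0.48 ± 0.15, adjusted p = 0.0111), a call lost without nucleolar replicate 1, and SLC25A48 fell with the nucleolar (-0.65 ± 0.21, adjusted p = 0.0116) and the nuclear one (-0.51 ± 0.18, adjusted p = 0.0231). Both SLC25A48 calls were lost when the length and GC trend was removed, the nucleolar one also without nucleolar replicate 2 and the nuclear one also with a common total and without non-transfected replicate 1 or nuclear replicate 1.

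The mitoferrins import iron for heme and iron-sulfur cluster synthesis. SLC25A28 was at 15.7 and 14.8 CPM in the mitochondrial pull-downs, 14.1 and 11.8 CPM in the cytosolic, 23.9, 21.5 and 28.9 CPM in the nuclear and 19.6 and 22.8 CPM in the nucleolar pull-downs, against 8.77, 8.15 and 12.1 CPM in the non-transfected ones. On the log2 scale SLC25A28 differed from the non-transfected pull-downs by 0.63 ± 0.17 (adjusted p = 0.005) with the mitochondrial, 0.40 ± 0.17 (adjusted p = 0.0574) with the cytosolic, 1.28 ± 0.15 (adjusted p = 2.33e-06) with the nuclear and 1.07 ± 0.17 (adjusted p = 4.43e-05) with the nucleolar construct. The nuclear and nucleolar libraries of SLC25A28 were the highest, and its cytosolic value was not called. SLC25A37 stood at 29.5 and 30.7 CPM in the mitochondrial pull-downs, 21.2 and 22.3 CPM in the cytosolic, 44.2, 46.2 and 44.4 CPM in the nuclear and 26.3 and 32.2 CPM in the nucleolar pull-downs, against 28.96, 35.1 and 31.8 CPM in the non-transfected ones. SLC25A37 rose with the nuclear construct (0.48 ± 0.10, adjusted p = 0.000595) and fell with the cytosolic one (-0.53 ± 0.11, adjusted p = 0.00108). With the mitochondrial (-0.08 ± 0.11, adjusted p = 0.566) and the nucleolar construct (-0.13 ± 0.11, adjusted p = 0.335) it was not called.

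SLC25A46 belongs to the outer membrane, where it is tied to mitochondrial fission and lipid handling. SLC25A46 had 212 and 183 CPM in the mitochondrial pull-downs, 167 and 191 CPM in the cytosolic, 167, 134 and 117 CPM in the nuclear and 169.5 and 167 CPM in the nucleolar pull-downs, against 102, 105 and 103 CPM in the non-transfected ones. No transfected library reached down to the non-transfected ones, which lay close to each other. For SLC25A46, the log2 change over the non-transfected pull-downs was 0.92 ± 0.12 (adjusted p = 1.21e-05) with the mitochondrial, 0.78 ± 0.12 (adjusted p = 6.92e-05) with the cytosolic, 0.41 ± 0.11 (adjusted p = 0.00312) with the nuclear and 0.70 ± 0.12 (adjusted p = 0.000107) with the nucleolar construct. SLC25A43 and SLC25A53, whose substrates are not settled, fell with all 4 constructs, SLC25A53 by 0.63, 0.69, 0.79 and 0.81 and SLC25A43 by 0.38, 0.47, 0.73 and 0.90 on the log2 scale (mitochondrial, cytosolic, nuclear and nucleolar). The mitochondrial call of SLC25A43 was lost without mitochondrial replicate 2.

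A direct comparison of the mitochondrial with the cytosolic pull-downs asks whether carrier mRNAs were nearer to the mitochondrial enzyme, with transfection common to both groups. SLC25A27 alone passed: 1 of 42 members rose (against 0.632% of all genes fitted) and 0 fell (0.198%). With limma 10 members had an unadjusted p under 0.05. The share of all genes at that unadjusted threshold was not taken, so that count is not read as a trait of the family. SLC25A27 had 13.5 and 12.5 CPM in the mitochondrial pull-downs and 8.07 and 7.18 CPM in the cytosolic pull-downs (0.70 ± 0.15, adjusted p = 0.0415). The single inputs of SLC25A27 stood at 6.71 CPM (mitochondrial) and 4.48 CPM (cytosolic) before enrichment. That input difference was not subtracted in this comparison. The SLC25A27 call was lost when any one of the 4 libraries was left out, so it rests on all of them. The 95% intervals of 38 of the 42 members lay within a 2-fold change in either direction and those of 4 reached past it. For SLC25A5 the interval was -0.49 to -0.01 around -0.25, for SLC25A3 -0.38 to 0.00 around -0.19 and for SLC25A6 -0.64 to -0.03 around -0.34. SLC25A48, a carrier linked to choline import, had 4.24 and 5.86 CPM in the mitochondrial pull-downs and 2.30 and 2.26 CPM in the cytosolic pull-downs, which did not overlap but missed the threshold (0.87 ± 0.23, adjusted p = 0.0896), and it is named after its values were seen. SLC25A46 had 212 and 183 CPM in the mitochondrial pull-downs and 167 and 191 CPM in the cytosolic pull-downs, which overlapped (0.14 ± 0.13, adjusted p = 0.665).

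Between the mitochondrial and the nuclear pull-downs, 6 of 42 members rose (against 17.7% of all genes fitted) and 8 fell (9.84%). SLC25A48 rose most, with 4.24 and 5.86 CPM in the mitochondrial pull-downs and 1.51, 2.28 and 2.35 CPM in the nuclear pull-downs (0.99 ± 0.21, adjusted p = 0.00342). SLC25A24 had 83.3 and 70.3 CPM in the mitochondrial pull-downs and 59.1, 49.1 and 42.1 CPM in the nuclear pull-downs and rose (0.61 ± 0.12, adjusted p = 0.00261), and SLC25A46 rose as well (0.51 ± 0.12, adjusted p = 0.00647). SLC25A5 rose by 0.30 (SE 0.10, adjusted p = 0.0399), a call lost with a common total (0.04), with median-of-ratios scaling (0.23), with quantile normalization (-0.02) and without mitochondrial replicate 1, nuclear replicate 1 or nuclear replicate 2. The falls were led by the glutamate carrier SLC25A22, at 12.5 and 11.2 CPM in the mitochondrial pull-downs and 17.8, 21.2 and 28.6 CPM in the nuclear pull-downs (-0.85 ± 0.17, adjusted p = 0.00263). SLC25A45 (-0.84 ± 0.19, adjusted p = 0.00477), SLC25A28 (-0.66 ± 0.17, adjusted p = 0.01), SLC25A35 (-0.61 ± 0.16, adjusted p = 0.0112), SLC25A39 (-0.58 ± 0.14, adjusted p = 0.00884) and SLC25A37 (-0.56 ± 0.11, adjusted p = 0.00264) fell as well. Without mitochondrial replicate 1, SLC25A45, SLC25A28, SLC25A35, SLC25A39, SLC25A24 and SLC25A46 each lost their call. Over all members 1 then rose and 2 fell, beside 860 and 732 of 16103 genes. Without mitochondrial replicate 2, which also ended the calls of SLC25A28 and SLC25A35, 4 members fell, beside 724 of 16064 genes. Without nuclear replicate 2, 3 members rose, beside 2181 of 16056 genes. Scaling moved this comparison: 2 members rose and 17 fell with a common total, which shifts the median of all genes by -0.23. Over all genes 737 rose and 4066 fell of 16168. With median-of-ratios scaling 3 members rose and 10 fell, beside 2166 and 2059 of 16098 genes. SLC25A22, SLC25A37 and SLC25A48 held under every alternative and every left-out library.

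The nuclear pull-downs were then set against the cytosolic ones, and 8 of 42 members rose (against 10.2% of all genes fitted) and 10 fell (23.2%). SLC25A27 rose most, with 20.4, 18.4 and 17.3 CPM in the nuclear and 8.07 and 7.18 CPM in the cytosolic pull-downs (1.19 ± 0.14, adjusted p = 4.29e-05). Both mitoferrins rose. SLC25A37 had 44.2, 46.2 and 44.4 CPM in the nuclear and 21.2 and 22.3 CPM in the cytosolic pull-downs (1.02 ± 0.11, adjusted p = 2.94e-05), and SLC25A28 had 23.9, 21.5 and 28.9 CPM and 14.1 and 11.8 CPM in the same groups (0.88 ± 0.17, adjusted p = 0.00138). SLC25A45 had 5.52, 7.08 and 7.89 CPM in the nuclear and 2.76 and 3.06 CPM in the cytosolic pull-downs (0.99 ± 0.19, adjusted p = 0.00138). SLC25A16 also rose (0.58 ± 0.12, adjusted p = 0.00195). None of these 5 lost its call under an alternative or with a library left out. The largest falls were in SLC25A24, at 59.1, 49.1 and 42.1 CPM in the nuclear and 77.2 and 85.9 CPM in the cytosolic pull-downs (-0.70 ± 0.12, adjusted p = 0.00081), SLC25A6 (-0.63 ± 0.13, adjusted p = 0.00234) and SLC25A5 (-0.55 ± 0.10, adjusted p = 0.00125).

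The falls depended on scaling more than the rises. With a common total 13 members rose and 3 fell, with median-of-ratios scaling 8 rose and 4 fell, and with quantile normalization 9 rose and 2 fell. In that order, 3036 and 936 of 16168, 2068 and 2356 of 16098, and 1751 and 1655 of 16122 genes rose and fell. SLC25A5 and SLC25A6 lost their calls under quantile normalization (-0.22 and -0.43), and SLC25A24 kept its call in each. Without cytosolic replicate 1, cytosolic replicate 2 or nuclear replicate 2, in turn, 4 members fell. Over all genes 1873 of 16111, 1466 of 16102 and 2912 of 16056 fell in that order. Without cytosolic replicate 2, 5 members rose, beside 803 of 16102 genes. SLC25A3 was not called (-0.07 ± 0.08, adjusted p = 0.518) and turned positive under quantile normalization (0.28).

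**Figure D3:**
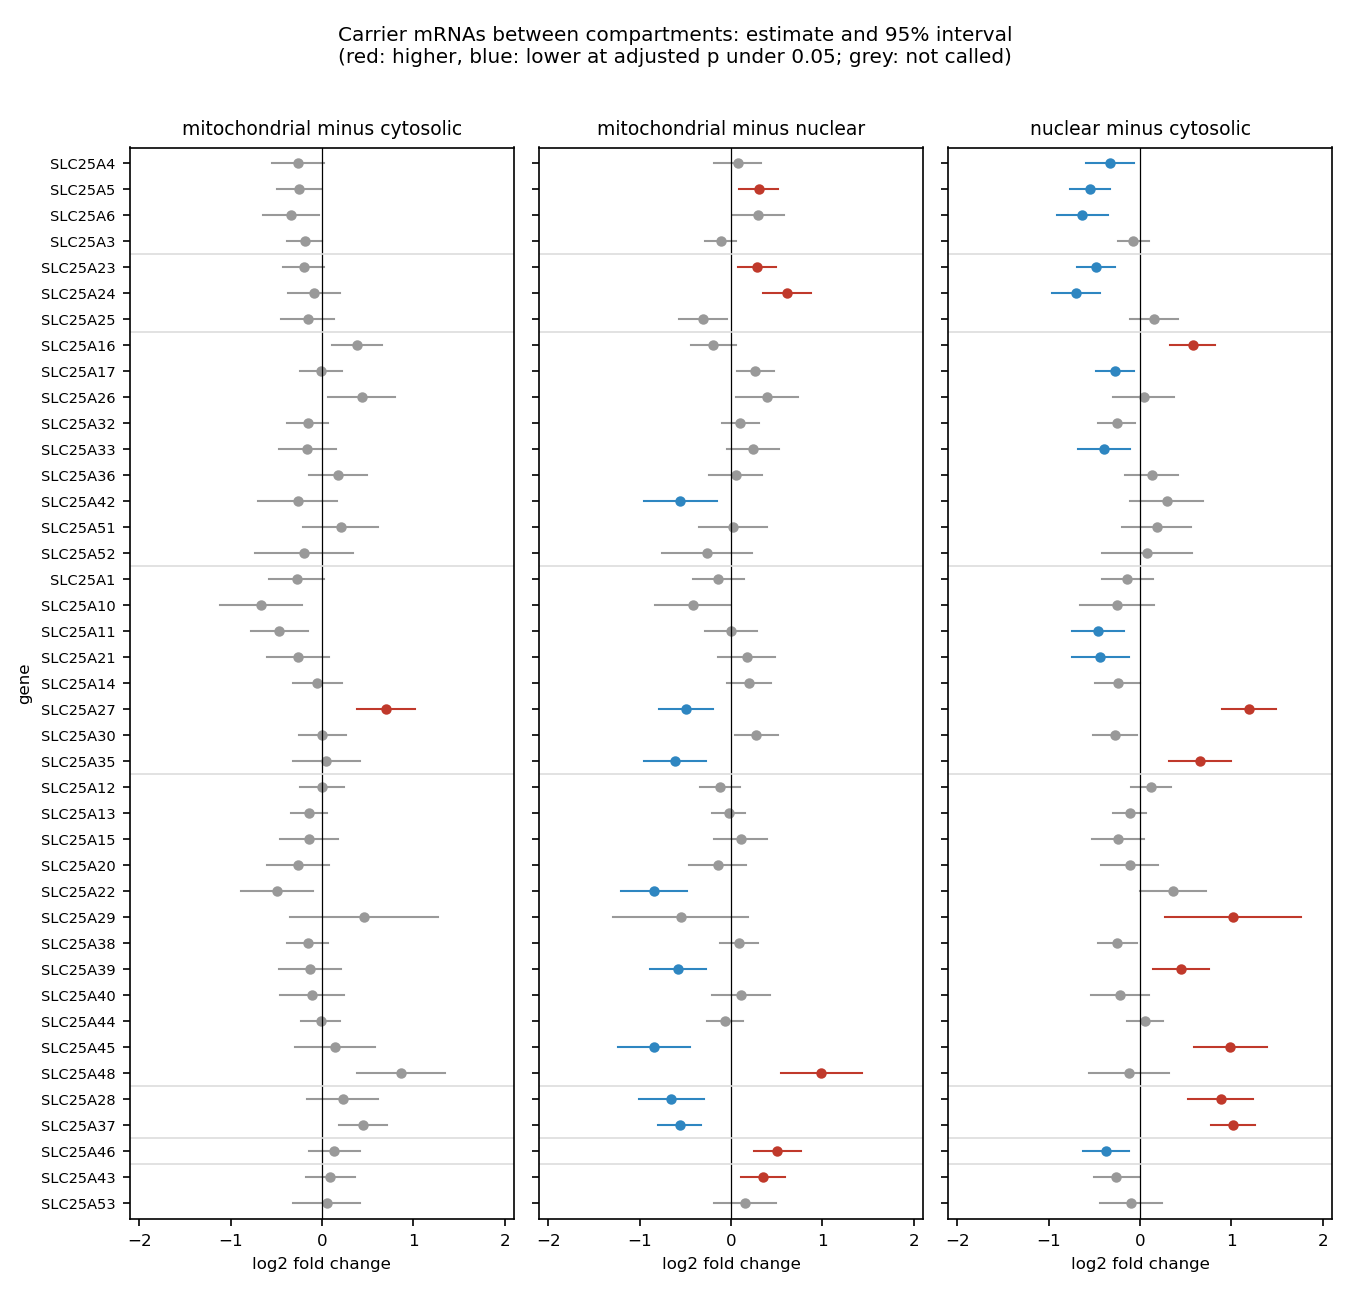
Log2 fold change (points) with 95% interval (lines) of 41 of the 42 tested members for mitochondrial minus cytosolic, mitochondrial minus nuclear and nuclear minus cytosolic pull-downs; red is higher and blue lower at adjusted p below 0.05, and grey is not called. In the first panel SLC25A27 alone is coloured, and in the other panels 14 and 18 members are.

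In the nucleolar against the nuclear pull-downs 2 of 42 members rose (against 16.6% of all genes fitted) and 16 fell (17.9%). SLC25A45 had 3.54 and 3.03 CPM in the nucleolar and 5.52, 7.08 and 7.89 CPM in the nuclear pull-downs (-0.86 ± 0.19, adjusted p = 0.00249), and SLC25A22 had 13.5 and 11.6 CPM and 17.8, 21.2 and 28.6 CPM in the same groups (-0.78 ± 0.17, adjusted p = 0.00248). SLC25A10 (-0.78 ± 0.19, adjusted p = 0.00581), SLC25A15 (-0.69 ± 0.13, adjusted p = 0.00111), SLC25A17 (-0.64 ± 0.10, adjusted p = 0.000162), SLC25A3 (-0.62 ± 0.08, adjusted p = 4.68e-05) and SLC25A37 (-0.61 ± 0.11, adjusted p = 0.000767) fell too. SLC25A51 fell (-0.79 ± 0.18, adjusted p = 0.00309), and its call was lost without nucleolar replicate 2. SLC25A44 rose, with 106 and 102 CPM in the nucleolar and 75.7, 85.1 and 83.5 CPM in the nuclear pull-downs (0.36 ± 0.09, adjusted p = 0.00721), a call lost with a common total and without nucleolar replicate 1. Without nucleolar replicate 2, 9 members fell (1465 of 16011 genes), and no member rose without nucleolar replicate 1 (1688 of 16023 genes). 1 member rose without nucleolar replicate 2 or without nuclear replicate 2 (1789 of 16011 and 2194 of 16056 genes). With a common total 0 rose and 24 fell, beside 1702 and 5563 of 16168 genes.

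To see what enrichment itself does, 10 pull-downs were compared with the 4 inputs, with construct as a covariate and without the nucleolar libraries. 14 of 42 members rose (against 36.5% of all genes fitted) and 15 fell (29.3%), with a median of -0.04 for the members and 0.07 for protein-coding genes. With median-of-ratios scaling 10 of 41 members fitted rose and 17 fell, beside 5494 and 5438 of 16525 genes. SLC25A10 fell most. Its pull-downs had 12.8 and 9.61 CPM (mitochondrial), 21.0 and 15.8 CPM (cytosolic), 12.3, 13.6 and 20.7 CPM (nuclear) and 24.3, 21.9 and 24.7 CPM (non-transfected), against 38.7, 64.1, 48.5 and 52.9 CPM in the inputs of the same cells (-1.54 ± 0.14, adjusted p = 4.00e-07). SLC25A1 (-1.47 ± 0.11, adjusted p = 3.03e-07), SLC25A11 (-1.36 ± 0.11, adjusted p = 3.04e-07), SLC25A39 (-1.19 ± 0.11, adjusted p = 4.00e-07), SLC25A6 (-1.06 ± 0.14, adjusted p = 6.60e-06) and SLC25A5 (-0.92 ± 0.12, adjusted p = 5.89e-06) also fell. SLC25A36, a pyrimidine nucleotide carrier, rose most: its pull-downs had 182 and 159.5 CPM (mitochondrial), 146 and 155 CPM (cytosolic), 208, 160.3 and 133 CPM (nuclear) and 147, 145 and 132 CPM (non-transfected), against 79.3, 68.9, 52.6 and 86.9 CPM in the inputs (1.13 ± 0.13, adjusted p = 1.69e-06). SLC25A46 (1.08 ± 0.12, adjusted p = 1.68e-06), SLC25A40, tied to glutathione like SLC25A39 (1.03 ± 0.13, adjusted p = 3.76e-06), SLC25A27 (0.97 ± 0.15, adjusted p = 4.07e-05) and SLC25A30 (0.72 ± 0.08, adjusted p = 1.77e-06) rose as well.

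Members differed in base composition along with their change on enrichment. The stretches below are the last 120 coding bases of the member that fell most (SLC25A10, chr17:81712236-81721016, plus strand) and of members among the largest rises (SLC25A36, chr3:140941830-140980961, plus strand, and SLC25A40, chr7:87833568-87876357, minus strand), with G and C in capitals. Whole transcripts held 64.9% G and C in SLC25A10 and 37.4% and 34.2% in SLC25A36 and SLC25A40.
SLC25A10: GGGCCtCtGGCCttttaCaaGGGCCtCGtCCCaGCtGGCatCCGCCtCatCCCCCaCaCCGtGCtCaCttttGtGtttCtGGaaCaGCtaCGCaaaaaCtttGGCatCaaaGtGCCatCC
SLC25A36: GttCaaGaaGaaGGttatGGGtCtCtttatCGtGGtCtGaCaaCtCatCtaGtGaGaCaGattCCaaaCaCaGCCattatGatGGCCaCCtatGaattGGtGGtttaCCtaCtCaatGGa
SLC25A40: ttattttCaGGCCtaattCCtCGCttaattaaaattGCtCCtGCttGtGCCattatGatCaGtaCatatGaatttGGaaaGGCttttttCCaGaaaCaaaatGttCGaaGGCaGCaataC

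Over the 42 members, Spearman's rho between the pull-down over input change and transcript GC content was -0.75, and over 14055 protein-coding genes it was -0.70. With transcript length it was 0.48 over the members and 0.47 over protein-coding genes. These relations are across genes that share the same libraries, and genes are not independent replicates. GC content over the members ran from 34.2% to 65.9%. When a smooth trend of length and GC was removed from each library, the falls of SLC25A10, SLC25A1, SLC25A11 and SLC25A39 kept their calls (-0.73, -0.56, -0.79 and -0.37), as did the rises of SLC25A36, SLC25A46 and SLC25A27 (0.40, 0.71 and 0.55). Those of SLC25A6 (-0.29) and SLC25A40 (0.21) did not. That alternative was added after the relation had been seen. GC content also moved with the mitochondrial against nuclear change, with rho of -0.43 over the members and -0.64 over protein-coding genes, and with the nuclear against cytosolic change, with rho of 0.23 and 0.35. The part of base composition in these results was not tested beyond this.

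**Figure D4:**
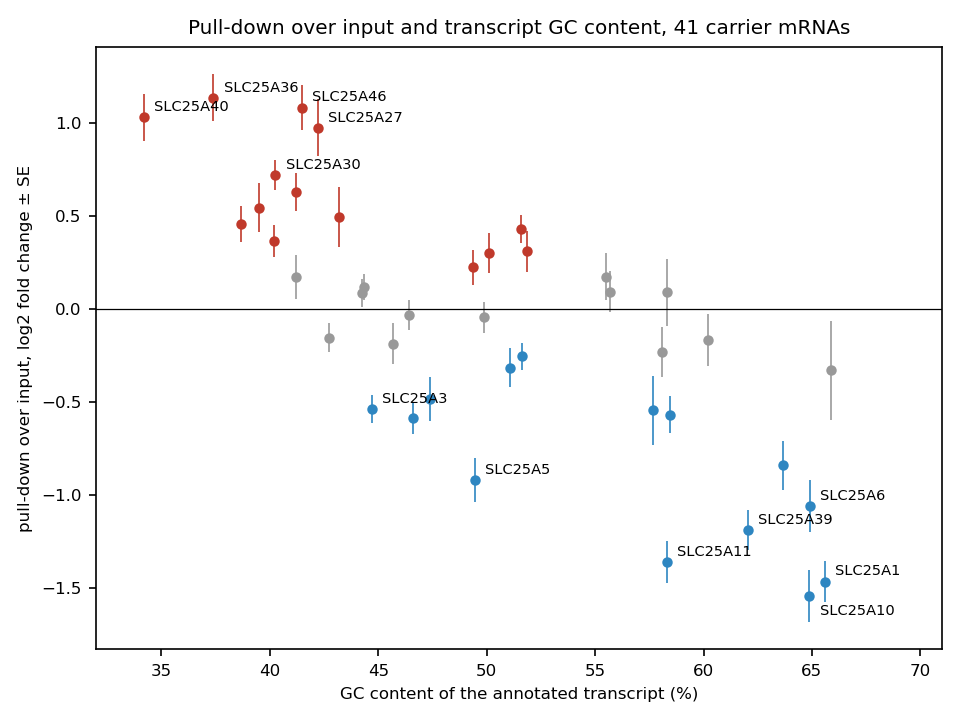
Pull-down over input log2 fold change (± SE) of 41 of the 42 tested members against the GC content of the annotated transcript in percent; red members are higher and blue ones lower in pull-downs at adjusted p below 0.05, grey ones were not called. SLC25A40, with the lowest GC content, 34.2%, rose, and SLC25A1 and SLC25A10, at 65.6% and 64.9%, fell most. SLC25A29, with the highest GC content, 65.9%, did not fall as far as these.

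The inputs show what differed between the cells before enrichment. Each construct has 1 input library, so ratios have no replicate check and no test. Of the 42 members, 1 was 1.5-fold or more higher in the mitochondrial than in the non-transfected input (10.8% of all genes) and 5 were lower (9.45%). In the cytosolic input 2 were higher (10.8%) and 5 lower (8.73%), and in the nuclear input 2 were higher (12%) and 4 lower (10.3%). Among those of the 42 that were above 0 in the non-transfected input, SLC25A25 had the highest ratio in each. It was at 1.92-, 3.15- and 3.18-fold in the mitochondrial, cytosolic and nuclear input over the non-transfected one. SLC25A41, below the filter, had 0.728 CPM in the cytosolic and 0.0912 CPM in the non-transfected input, from about 10 and 1 reads. SLC25A5 was at 849 CPM in the mitochondrial input, 916 CPM in the cytosolic and 972 CPM in the nuclear input, against 1259 CPM in the non-transfected input. SLC25A3 was at 411, 539 and 537 CPM in the same transfected inputs, against 649.8 CPM.

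When the difference already present in the inputs was subtracted, few members were called. The input-corrected mitochondrial comparison called no member in either direction with limma (6.16% of all genes rose and 3.4% fell). There 8 members had an unadjusted p under 0.05, a threshold at which the share of all genes was not taken. The calls of this comparison were also 0 with a common total and with median-of-ratios scaling, and 1 member rose with quantile normalization. In that order, 1030 and 794 of 16730, 1013 and 718 of 16709, and 970 and 811 of 16608 genes rose and fell. SLC25A25 was at 0.76 ± 0.23 there, and SLC25A5 at -0.44 ± 0.19. In the input-corrected cytosolic comparison SLC25A46 rose (0.94 ± 0.22, adjusted p = 0.0212) and no member fell (5.74% and 2.77% of all genes). That call was lost without cytosolic replicate 2, and 8 members had an unadjusted p under 0.05, again without a share of all genes. The input-corrected nuclear comparison called 4 rises (7.63%) and 4 falls (8.94%). SLC25A6 (-1.14 ± 0.24, adjusted p = 0.00584), SLC25A5 (-0.93 ± 0.18, adjusted p = 0.00447), SLC25A11 (-0.80 ± 0.24, adjusted p = 0.0329) and SLC25A23 (-0.76 ± 0.17, adjusted p = 0.0096) fell. SLC25A45 (1.21 ± 0.33, adjusted p = 0.0249), SLC25A27 (1.13 ± 0.25, adjusted p = 0.00926), SLC25A36 (0.93 ± 0.25, adjusted p = 0.0208) and SLC25A16 (0.71 ± 0.21, adjusted p = 0.034) rose. Without nuclear replicate 2 the calls of SLC25A11, SLC25A16 and SLC25A45 were lost and 2 rises were left, beside 881 of 16645 genes. Without non-transfected replicate 1 SLC25A16 lost its call, and without non-transfected replicate 3 SLC25A11 did. With a common total, which shifts the median of all genes by 0.17, 8 rose and 3 fell, beside 2596 and 961 of 16730 genes. A lone input is taken to have the same spread as replicated groups. For SLC25A36, not called between nuclear and non-transfected pull-downs, these inputs held 52.6 CPM (nuclear) and 86.9 CPM (non-transfected).

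The 5 members below the filter reached 1.10 CPM at most in any library. SLC25A31 was listed at 0 in the non-transfected pull-downs. Its mean was 0.204 CPM in the mitochondrial, 0.403 CPM in the cytosolic, 0.371 CPM in the nuclear and 0.320 CPM in the nucleolar pull-downs. These means came from about 6, 9, 14 and 6 reads. They were 2.05-, 4.04-, 3.72- and 3.21-fold a floor of 3 reads over the non-transfected group. Counting error in the transfected groups is not covered. SLC25A18, a glutamate carrier, averaged 0.694 CPM in the mitochondrial pull-downs, 0.132 CPM in the cytosolic, 0.797 CPM in the nuclear and 0.264 CPM in the nucleolar pull-downs, against 0.0699 CPM in the non-transfected ones. SLC25A41 averaged 0.317 CPM in the nuclear and SLC25A34 0.300 CPM in the nuclear pull-downs, against 0.0687 and 0.208 CPM in the non-transfected ones, and SLC25A47 stayed at 0.307 CPM or less. None was tested.

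Other genes of the pathway were read from lists chosen beside the members. Of 10 genes of carrier import, 1 rose and 4 fell with the mitochondrial (28.9% and 27% of all genes), 0 and 4 with the cytosolic (28.9% and 22.4% of all genes), 1 and 7 with the nuclear (32.2% and 34.2% of all genes) and 2 and 5 with the nucleolar construct (30.1% and 35.6% of all genes) over the non-transfected pull-downs. Their median changes were -0.22, -0.10, -0.40 and -0.23 in that order. The small chaperone TIMM8B fell with the mitochondrial (-0.87 ± 0.11, adjusted p = 9.71e-06) and the nuclear construct (-1.05 ± 0.10, adjusted p = 2.35e-07), and the receptor TOMM70 was not called with the mitochondrial construct (0.20 ± 0.09, adjusted p = 0.0605) and fell with the nuclear one (-0.29 ± 0.08, adjusted p = 0.00412). None of the 10 was called between mitochondrial and cytosolic pull-downs (0.632% of all genes rose and 0.198% fell there). In mitochondrial against nuclear pull-downs 3 rose and 0 fell (17.7% and 9.84%), and in pull-downs against inputs 1 rose and 6 fell (36.5% and 29.3%). Of the family members that carry other names, 4 were tested. Over the non-transfected pull-downs 1 rose and 3 fell with the mitochondrial (28.9% and 27% of all genes) and 1 and 2 with the cytosolic construct (28.9% and 22.4%). With the nuclear construct it was 1 and 2 (32.2% and 34.2%) and with the nucleolar one 1 and 3 (30.1% and 35.6%). The uncoupling protein gene UCP2 fell (-1.14 ± 0.12, adjusted p = 2.20e-06) and UCP3 rose (0.92 ± 0.23, adjusted p = 0.00321) with the mitochondrial construct, where the insertase MTCH2 fell (-0.68 ± 0.08, adjusted p = 7.02e-06). Of 19 other tested transporters of the inner membrane, 2 rose and 9 fell with the mitochondrial (28.9% and 27% of all genes), 2 and 7 with the cytosolic (28.9% and 22.4% of all genes), 3 and 11 with the nuclear (32.2% and 34.2% of all genes) and 3 and 12 with the nucleolar construct (30.1% and 35.6% of all genes). Their median changes were -0.30, -0.29, -0.46 and -0.65 in that order, and none was called between mitochondrial and cytosolic pull-downs (0.632% and 0.198% of all genes). The calcium uniporter MCU rose with the mitochondrial construct (0.38 ± 0.09, adjusted p = 0.0016), and MPC2 of the pyruvate carrier fell (-0.51 ± 0.11, adjusted p = 0.0016).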

How the data were processed

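Labelled RNA of 12 pull-downs and 4 inputs was sequenced after poly(A) capture. STAR 2.7.9a, Salmon 1.4.0, limma and the build GRCh38 appear in the submitters' processing notes, with no role given. The deposited values are log2 CPM after TMM normalization by the authors, with a small constant added before the log, per the labels; the lowest value, -2.59, was read as a count of 0 and gave a constant of 0.166 CPM, which was subtracted. Plain CPM had been assumed when the tests were chosen, and the same tests were kept. Within 0.01 of a read, 69.1% to 84.2% of the values above 0 in a library came out as whole reads, which was short of nearly all, so no count test was run.

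Genes with at least 1 CPM in 2 libraries were fitted on log2(CPM + 1) with limma 3.58.1 (R 4.3.3), with a trend in the spread, two-sided tests and Benjamini-Hochberg adjustment over all genes fitted in each of 12 comparisons. Groups of 2 or 3 libraries shared the estimate of spread over all 12 pull-downs. Names, coordinates and transcripts come from GENCODE 29, and tables were made with Python 3.11.15. Members and lists were chosen with earlier results of these data known. In each comparison up to 10 called members a direction whose groups do not overlap were to be named, beside a fixed set of transporters of central metabolism and iron and the extremes of level; other members are named to account for the group counts, after their values were seen. Replicate numbers did not pair the libraries. Values of 1 tested member are not reported here, though counts include it. Alternatives varied the pseudocount, filter, scaling, fit and libraries.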

Additional observations from a re-analysis of the deposited data

Results flagged for a closer look

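In 9 cases the difference between a construct's pull-down and its own input was not the same as in non-transfected cells by a test of that difference itself (limma, Benjamini-Hochberg over 16693 genes). Of 42 members, 0 were called with the mitochondrial and 1 with the cytosolic construct, and 4 rose and 4 fell with the nuclear one. Over all genes 9.55%, 8.51% and 16.6% were called in either direction in that order. With the nuclear construct the pull-down over input change exceeded that of non-transfected cells by 1.21 ± 0.33 (adjusted p = 0.0249) on the log2 scale for SLC25A45, by 1.13 ± 0.25 (adjusted p = 0.00926) for SLC25A27, by 0.93 ± 0.25 (adjusted p = 0.0208) for SLC25A36 and by 0.71 ± 0.21 (adjusted p = 0.034) for SLC25A16. It was below that of non-transfected cells for the ADP/ATP carriers SLC25A6, at -1.14 ± 0.24 (adjusted p = 0.00584), and SLC25A5, at -0.93 ± 0.18 (adjusted p = 0.00447). The same held for SLC25A11, at -0.80 ± 0.24 (adjusted p = 0.0329), and SLC25A23, at -0.76 ± 0.17 (adjusted p = 0.0096). With the cytosolic construct the outer membrane protein gene SLC25A46 was higher by 0.94 ± 0.22 (adjusted p = 0.0212). Each rests on 1 input library a construct. For SLC25A36 the nuclear input held 52.6 CPM, against 86.9 CPM in the non-transfected input. Its nuclear pull-downs were not called over the non-transfected ones. No group holds 4 libraries, so none could be searched for a library far from the others.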

How the results depend on the processing

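Of 5183 values of single members under the alternatives, 4816 kept their direction and side of the threshold, 282 fell short of it, 74 newly passed and 11 reversed. Of 434 counts of called members 376 stayed within 1.5 times the reported count. With a common total 10 members fell in nuclear against non-transfected pull-downs, 2 rose and 17 fell in mitochondrial against nuclear, 13 rose and 3 fell in nuclear against cytosolic, 0 rose in nucleolar against nuclear, and 8 rose in the input-corrected nuclear comparison. Median-of-ratios scaling gave 3 rises in mitochondrial against nuclear and 4 falls in nuclear against cytosolic. The counts over all genes under these scalings are given with each comparison above. Quantile normalization gave 2 falls in nuclear against cytosolic (1655 of 16122 genes) and 1 rise in nucleolar against nuclear (2741 of 16122). It gave 1 and 2 rises in the input-corrected mitochondrial and cytosolic comparisons (970 and 946 of 16608). Mitochondrial against cytosolic had 0 rises with a pseudocount of 5 or no filter (93 of 16133 and 69 of 24878 genes). Fitting only the groups compared gave 4 rises and 4 falls there (375 and 926 of 14720 genes). It gave 3 rises in mitochondrial against nuclear (1450 of 15234) and 6 falls in nuclear against cytosolic (2661 of 15145). Nucleolar against nuclear had 1 rise (2143 of 15361). The input-corrected mitochondrial comparison had 1 rise (1083 of 15777). The cytosolic one had 3 rises and 2 falls (2034 and 997 of 15548) and the nuclear one 1 rise (584 of 16007). With no filter 5 members fell in nuclear against cytosolic (3189 of 24878 genes), and with no trend 6 fell there (3124 of 16133). With no trend 1 rose in nucleolar against nuclear (2470 of 16133) and 0 in the input-corrected cytosolic comparison (436 of 16693). A filter of 5 CPM or robust moderation gave 1 rise in the input-corrected mitochondrial comparison (1038 of 12814 and 1090 of 16693 genes). With the length and GC trend removed, an alternative chosen after seeing the data, mitochondrial against cytosolic had 3 rises and 2 falls (152 and 467 of 13838 genes). The input-corrected mitochondrial comparison then had 1 rise and 1 fall (1387 and 988 of 14138). The cytosolic one had 2 rises and 1 fall (1172 and 632 of 14138) and the nuclear one 7 falls (2256 of 14138).

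Reversed values were 0.26 for SLC25A13 in nuclear against non-transfected pull-downs (common total), -0.023 for SLC25A5 (quantile) and 0.25 for SLC25A1 (length and GC trend removed) in mitochondrial against nuclear, 0.28 for SLC25A3 in nuclear against cytosolic (quantile), and -0.23 for SLC25A12, -0.21 for SLC25A13, 0.47 for SLC25A28, -0.0090 for SLC25A16, -0.21 for SLC25A24, -0.14 for SLC25A32 and 0.13 for SLC25A48 in pull-down against input (length and GC trend removed). The cause of these changes was not tested.

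With each pull-down library left out in turn, rises ranged over 7 to 9 and falls over 10 to 14 for the mitochondrial, 5 to 10 and 9 to 12 for the cytosolic, 12 to 13 and 14 to 16 for the nuclear and 6 to 8 and 19 to 22 for the nucleolar construct over non-transfected pull-downs. They ranged over 0 to 0 and 0 to 0 in mitochondrial against cytosolic, 1 to 7 and 2 to 11 in mitochondrial against nuclear, 5 to 9 and 4 to 13 in nuclear against cytosolic, 0 to 3 and 9 to 16 in nucleolar against nuclear and 12 to 14 and 15 to 17 in pull-down against input. In the input-corrected comparisons they were 0 and 0 (mitochondrial), 0 to 1 and 0 (cytosolic) and 2 to 5 and 3 to 6 (nuclear).

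Replicate numbers did not pair the libraries: over 21 pairs of same-numbered libraries the correlation of deviations ran from -0.17 to 0.16, and 3 were over 0.1. With the replicate number as a block, mitochondrial against cytosolic had 2 rises and 1 fall (166 and 313 of 16133 genes). Over non-transfected pull-downs, rises and falls were 8 and 13 (mitochondrial), 10 and 13 (cytosolic), 12 and 17 (nuclear) and 8 and 23 (nucleolar). In that order, 4593 and 4286, 4669 and 3487, 5334 and 5674, and 4850 and 5645 of 16133 genes rose and fell. Those of the members were 6 and 7 in mitochondrial against nuclear, 8 and 11 in nuclear against cytosolic and 3 and 16 in nucleolar against nuclear. Over all 16133 genes they were 2665 and 1349, 1592 and 3967, and 2710 and 2859 in that order. No paired analysis was possible for the inputs because each construct has 1.

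With 2 or 3 libraries a group and 1 read worth up to 0.154 CPM, members below about 1 CPM rest on few reads, and differences that lie within the printed intervals were not detectable.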
